A study of Mus musculus with 28 samples.

Results

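The 36 genes described here make, regulate and move cholesterol. They were chosen by symbol: a gene belongs when its gene name in the deposited files equals a symbol of the list, and all 36 symbols were found among the 23309 gene names of the files. By role they comprise 9 genes from acetyl-CoA to squalene, 10 from squalene to cholesterol, 7 of control and 10 of transport, storage and removal. The list does not cover every gene of the pathway. RNA was sequenced from the striatum, the main input nucleus of the basal ganglia, of 28 C57BL/6J mice. Chronic haloperidol had been given to 16 mice and placebo to 12. Haloperidol is an antipsychotic that blocks dopamine receptors. The labels place the mice in 2 batches, without saying what a batch stands for, with 8 haloperidol and 8 placebo mice in batch 1 and 8 haloperidol and 4 placebo mice in batch 2. All mice were of the same strain and carried no stated allele; the labels state no dose, duration, age or sex. Each library is 1 mouse and is named by group and mouse number.

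Cholesterol is built from acetyl-CoA through mevalonate, farnesyl diphosphate and squalene, which is closed into lanosterol and then trimmed and reduced to cholesterol. When sterols in the endoplasmic reticulum run low, the escort protein Scap carries the precursors of the transcription factors Srebf1 and Srebf2 to the Golgi, where they are cut and released to switch on the enzymes. The Insig proteins hold Scap back when sterols are plentiful, and Insig1 is itself a target of these factors. The brain makes its own cholesterol, since lipoproteins of the blood do not cross into it. Astrocytes load it onto apolipoprotein E, and neurons remove it as 24-hydroxycholesterol through Cyp46a1. Haloperidol is known to inhibit sterol isomerase and reductase enzymes of the late pathway.

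Levels are FPKM, the deposited unit in which fragments are set against transcript length and library size, divided here by 1 factor per library (scaled FPKM). Differences are on the log2(scaled FPKM + 0.5) scale, with their standard error (SE) from limma and p-values adjusted over all 12760 genes tested (Benjamini-Hochberg, threshold 0.05). The 12 genes of fatty acid synthesis, 8 of the isoprenoid branch and 18 of other sterol handling stand beside the members as related lists. The deposited files give no read counts, and the absolute depth is unknown. Relative depth ranged from 0.405 to 1.62 of the mean, and the median half-width of the deposited FPKM interval from 12.2% to 22.7% over libraries. The RNA integrity number (RIN), a measure of RNA degradation, averaged 7.83 in haloperidol and 7.67 in placebo mice of batch 1, and 8.28 and 8.43 in batch 2. The 10 markers of spiny projection neurons, the main cells of striatum, summed to between 2065 and 4163 scaled FPKM in every library. The 7 markers of cortical excitatory neurons summed to 194 to 546 and the 5 of choroid plexus to 21.2 to 9292. Whether the dissections differed in neighbouring tissue was not tested. In bulk tissue, fewer cells of a type and less RNA per cell cannot be told apart.

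Of the 36 members, 35 were above 0 and all 35 passed the mean FPKM of 1 needed for testing. Hmgcs1, which joins acetyl-CoA to acetoacetyl-CoA ahead of mevalonate, is listed at 0 in all 28 libraries. Its 2 transcript entries in the files lie on unplaced sequence of chromosome 13 (mm9) and nowhere else, so it is given no level or difference.

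The promoter windows below are printed because their 5 genes were higher in batch 2, the comparison in which members differed, and because each holds a CCAAT box, the site of the factor NF-Y that works beside the sterol-responsive factors. They come from RefSeq on GRCm38.p6 and run from 250 bases before to 50 after the start, 5′ to 3′ on the gene's strand. Insig1 is at chr5:28071162-28071461 (plus strand), Sc4mol at chr8:64733529-64733828 (minus, listed there as Msmo1) and Hsd17b7 at chr1:169969156-169969455 (minus). Idi1 is at chr13:8885356-8885655 (plus) and Cyp51 at chr5:4104648-4104947 (minus). Capitals mark CCAAT on either strand (CCAAT or ATTGG).
Insig1: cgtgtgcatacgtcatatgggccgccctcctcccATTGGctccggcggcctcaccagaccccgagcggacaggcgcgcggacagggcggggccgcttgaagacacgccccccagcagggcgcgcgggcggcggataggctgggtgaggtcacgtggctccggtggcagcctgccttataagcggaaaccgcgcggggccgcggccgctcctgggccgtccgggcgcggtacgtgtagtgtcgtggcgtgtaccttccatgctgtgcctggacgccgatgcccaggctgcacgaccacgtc
Sc4mol: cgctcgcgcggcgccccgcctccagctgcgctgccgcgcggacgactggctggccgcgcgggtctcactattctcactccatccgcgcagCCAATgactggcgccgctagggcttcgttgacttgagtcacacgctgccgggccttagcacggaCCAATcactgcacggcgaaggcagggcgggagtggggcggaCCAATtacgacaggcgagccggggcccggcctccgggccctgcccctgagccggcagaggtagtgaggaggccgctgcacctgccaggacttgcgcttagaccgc
Hsd17b7: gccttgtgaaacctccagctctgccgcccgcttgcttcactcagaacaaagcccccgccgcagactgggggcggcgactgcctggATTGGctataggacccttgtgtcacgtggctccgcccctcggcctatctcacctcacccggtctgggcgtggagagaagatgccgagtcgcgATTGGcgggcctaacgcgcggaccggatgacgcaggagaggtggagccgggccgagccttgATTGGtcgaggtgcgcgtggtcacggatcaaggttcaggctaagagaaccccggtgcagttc
Idi1: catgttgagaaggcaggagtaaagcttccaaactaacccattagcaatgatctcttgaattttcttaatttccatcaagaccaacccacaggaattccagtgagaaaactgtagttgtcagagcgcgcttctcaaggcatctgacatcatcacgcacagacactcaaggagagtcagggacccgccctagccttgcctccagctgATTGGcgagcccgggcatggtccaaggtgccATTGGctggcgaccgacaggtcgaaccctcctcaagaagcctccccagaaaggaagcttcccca
Cyp51: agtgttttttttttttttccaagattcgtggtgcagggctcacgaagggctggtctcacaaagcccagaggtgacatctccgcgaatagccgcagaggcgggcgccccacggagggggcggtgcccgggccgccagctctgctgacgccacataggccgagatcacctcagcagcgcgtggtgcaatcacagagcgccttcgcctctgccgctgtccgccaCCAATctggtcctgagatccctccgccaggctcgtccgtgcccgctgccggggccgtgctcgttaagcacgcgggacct
Sc4mol and Hsd17b7 hold the box at 3 places, Idi1 at 2, and Insig1 and Cyp51 at 1. A window was found for 29 of the 36 members. CCAAT was in 21 of the 29 (72.4%) against 41.1% of 27025 genes with a window, and GGGCGG, the letters of an Sp1 site, in 24 of 29 (82.8%) against 38.2%. All 9 genes from squalene to cholesterol with a window held both. The sterol element was searched on both strands only as the exact letters TCACNCCAC. These were in the windows of 1 member, Hmgcs1, and of 1.44% of all genes with a window. Other spellings of the element were not searched, so a window without these letters may still hold one. Of the 7 members higher in batch 2, 6 have a window and 5 of the 6 (83.3%) hold CCAAT; the window of Aacs holds none. These matches are counts of letters and were not compared by a test. The 27025 genes were not limited to genes expressed here, whereas all members but Hmgcs1 reached the level needed for testing.

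By level, the members spanned from Apoe, the lipoprotein of astrocytes, at a mean of 1841 FPKM to Nr1h3, a nuclear receptor for oxysterols, at 1.90. Apoe stood at the 99.9th percentile of genes tested. Cyp46a1, the enzyme by which neurons hydroxylate cholesterol for export, followed at 142. The next were Fdps (farnesyl diphosphate synthase) at 69.8, Sc4mol (the sterol C4-methyl oxidase, also called Msmo1) at 54.3 and Fdft1 (squalene synthase) at 48.6. The lowest enzymes of synthesis were Lss, lanosterol synthase, which closes the sterol rings, at 2.88 and Hsd17b7 at 2.45. Nr1h3, Abca1 and Stard4 lay within 1.90 to 1.93, closer than their spread between mice. FPKM is per length, so these levels can be set against each other within the limits of the deposited gene models. Mouse-to-mouse spread differed as widely. The SD of log2 values within treatment and batch was 0.089 for Scap and Sc4mol and 0.091 for Cyp51, against 0.740 for Stard4, a cytosolic sterol carrier, with a median of 0.296 over members and 0.273 over all genes.

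For haloperidol against placebo, with batch in the model, 0 of the 35 members passed the threshold. In all, 1 of 12760 genes (0.00784%) passed, the annexin Anxa3, named here after its value was seen. At an unadjusted p under 0.05 there was 1 member, Hsd17b7, against 6.42% of all genes. The difference was above 0 for 20 of 35 members and for 50.9% of genes, with a median of 0.025 over members and 0.0038 over genes. The 95% limma interval lay within 1.2-fold either way for 14 members, within 1.5-fold for 30 and within 2-fold for all 35. In 10 simulated sets of the same design the test found 20.8% of 678 genes changed by 1.2-fold, 68.9% of 656 at 1.5-fold and 92% of 666 at 2-fold. These sets held more changed genes than were called here, which eases the adjusted threshold. The shares may therefore be too high for the members.

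**Figure D1:**
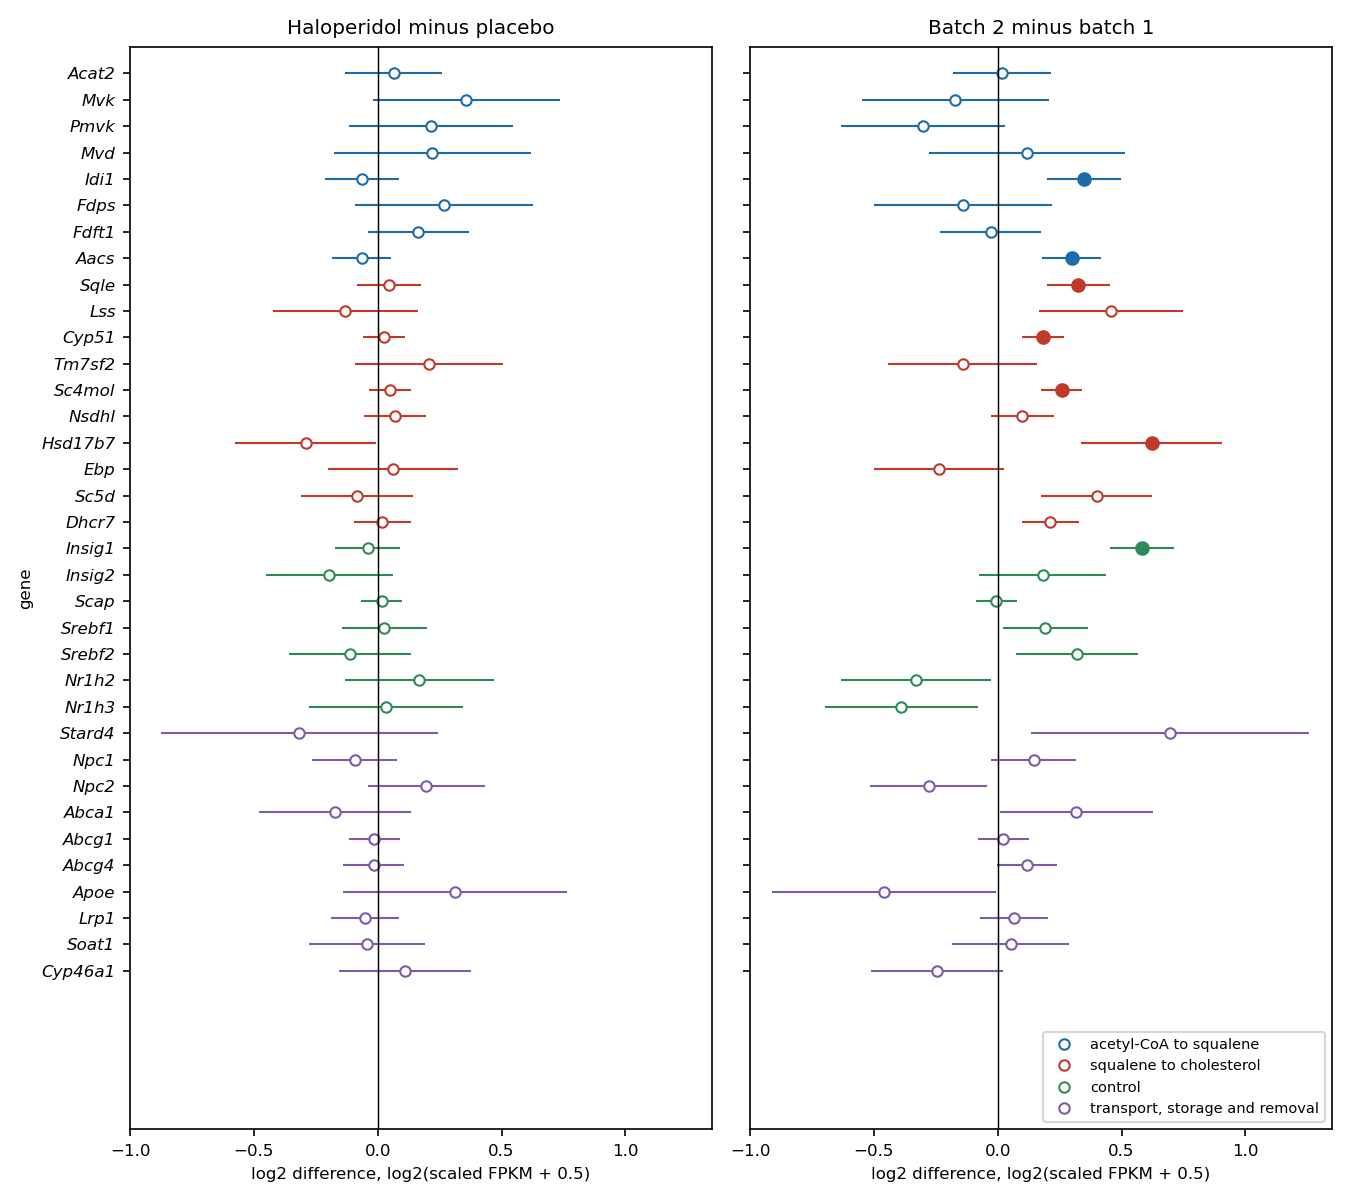
Log2 difference of each of the 35 members tested, with its 95% interval, for haloperidol minus placebo (left) and batch 2 minus batch 1 (right). Filled points passed the adjusted threshold of 0.05: 0 on the left, and 7 on the right, all above 0.

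From acetyl-CoA to squalene, 0 of 8 members tested passed, 6 had a difference above 0 and the median was 0.19. Mvk, mevalonate kinase, had a lowest, median and highest level of 9.32, 15.4 and 30.7 scaled FPKM in the 16 haloperidol mice and 8, 10.6 and 23.1 in the 12 placebo mice. Its difference of 0.36 ± 0.18 (SE) was the largest of the role and gave an unadjusted p of 0.0619 and an adjusted p of 0.568. The ranges overlapped, and 11 of 16 haloperidol mice lay above the placebo mean of their batch. Fdps, which makes farnesyl diphosphate, the branch point to isoprenoids, had 42.7, 74.6 and 112 with haloperidol and 39.4, 52.8 and 113 with placebo (difference 0.27 ± 0.18, adjusted p = 0.568). Its 4 placebo mice of batch 2 lay close together, between 52.2 and 53.1, below most haloperidol mice. Fdft1, which commits farnesyl diphosphate to sterols, had 35.7, 50.7 and 65.3 against 36.7, 42.8 and 60.8 (0.16 ± 0.10, adjusted p = 0.568). Fdft1 shares 773 exon bases, 27% of its length, with Ctsb on the opposite strand. How far reads of Ctsb enter its level is unknown. Pmvk, phosphomevalonate kinase, had 25.1, 44.1 and 70.5 against 27.1, 33.3 and 72.1 (0.22 ± 0.16, adjusted p = 0.568). The groups overlapped for all 4 genes. These 4 also moved with the sum of FPKM of the library, described below: with that sum as a covariate the differences were 0.13 for Mvk, 0.05 for Fdps, 0.05 for Fdft1 and 0.02 for Pmvk. The other members of the role were Mvd (mevalonate diphosphate decarboxylase) at 0.22, Acat2 (acetoacetyl-CoA thiolase) at 0.06, Idi1 (isopentenyl diphosphate isomerase) at -0.06 and Aacs (acetoacetyl-CoA synthetase, which feeds ketone bodies into the pathway) at -0.07.

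From squalene to cholesterol, 0 of 10 passed, 7 were above 0 and the median was 0.04. The isomerase and reductase steps were read singly. Ebp, the sterol isomerase, measured 9.34, 12.6 and 19.6 scaled FPKM (lowest, median, highest) with haloperidol and 8.08, 12.4 and 19.1 with placebo. The difference was 0.06 ± 0.13 with a 95% interval from -0.20 to 0.32 (adjusted p = 0.779). Dhcr7, the reductase of 7-dehydrocholesterol, measured 9.37, 12.1 and 14.3 against 9.74, 11.9 and 12.7, a difference of 0.02 ± 0.06 with an interval from -0.10 to 0.13 (adjusted p = 0.854). The medians of these genes were nearly level and their ranges overlapped. Tm7sf2, a sterol C14 reductase, measured 7.14, 11.5 and 18.2 against 6.95, 9.69 and 16.4, a difference of 0.21 ± 0.15 with an interval from -0.09 to 0.51 (adjusted p = 0.568). Hsd17b7, the ketosteroid reductase of C4 demethylation, measured 1.06, 2.08 and 4.22 against 1.04, 2.58 and 3.91. Its difference of -0.29 ± 0.14 was in the other direction from Tm7sf2, with an unadjusted p of 0.0441 and an adjusted p of 0.568. Only 2 of 16 haloperidol mice lay above the Hsd17b7 mean of the placebo mice of their batch, yet the groups overlapped. With the FPKM sum as a covariate Tm7sf2 was at 0.03 and Hsd17b7 at -0.14.

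**Figure D2:**
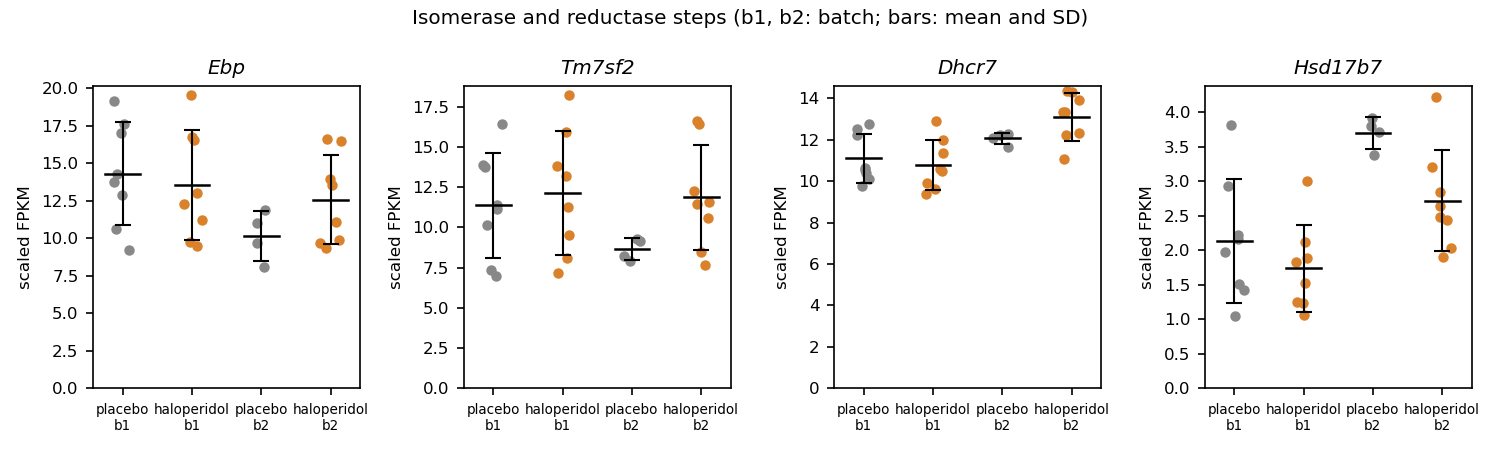
Scaled FPKM of Ebp, Tm7sf2, Dhcr7 and Hsd17b7 in each mouse (points) by treatment and batch (b1, b2), with mean and SD as bars, n = 8, 8, 4 and 8 from left to right. Haloperidol and placebo overlap within batch 1 for each gene, and in batch 2 the 4 placebo mice lie between 3.38 and 3.91 for Hsd17b7, with haloperidol between 1.91 and 4.22.

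Sc4mol, the least variable of these enzymes, measured 43.6, 56.6 and 65.9 with haloperidol and 44.3, 51.4 and 61.0 with placebo (0.05 ± 0.04, adjusted p = 0.568). Its interval, from -0.03 to 0.13, was among the narrowest of the members. Nsdhl, the dehydrogenase that acts after Sc4mol, measured 9.85, 11.1 and 13.9 against 9.32, 10.3 and 13.2 (0.07 ± 0.06, adjusted p = 0.574). Sqle (squalene epoxidase) had a difference of 0.05, Cyp51 (lanosterol demethylase) of 0.03, Sc5d (lathosterol oxidase) of -0.08 and Lss of -0.13.

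Among the 7 genes of control 0 passed and 4 were above 0, with a median of 0.017. Insig2, which holds back Scap like Insig1, measured 7.29, 12.8 and 18 with haloperidol and 9.33, 14.8 and 19.2 with placebo (-0.20 ± 0.13, adjusted p = 0.568). Nr1h2, the liver X receptor found widely in brain, measured 17.3, 28.4 and 44.1 against 17.8, 23.7 and 41.0 (0.17 ± 0.15, adjusted p = 0.572). Both had overlapping groups, and with the FPKM sum as a covariate stood at -0.05 and -0.02. Srebf2, the main activator of the sterol enzymes, measured 18.8, 30.8 and 40.6 against 19.5, 33.4 and 43.7 (-0.11 ± 0.12, adjusted p = 0.616). Insig1 measured 18, 28.5 and 37.2 against 17.9, 24.9 and 37.9 (-0.04 ± 0.06, adjusted p = 0.715). Each group held mice of both batches, which stood apart for Insig1 as given below, and the treatment difference was -0.06 in batch 1 and -0.0036 in batch 2. Scap stood at 0.02, Srebf1 at 0.03 and Nr1h3 at 0.03.

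For transport, storage and removal 0 of 10 passed, 3 were above 0 and the median was -0.03. Npc2, the soluble carrier that takes cholesterol out of lysosomes, measured 21.7, 27.1 and 39.9 with haloperidol and 17.7, 22.9 and 42.5 with placebo (0.20 ± 0.12, adjusted p = 0.568). Apoe measured 954, 1816 and 3660.3 against 910.1, 1327 and 3436 (0.31 ± 0.22, adjusted p = 0.568). Apoe was among the most variable members and its groups overlapped. Stard4 measured 0.415, 1.16 and 4.87 against 0.506, 1.93 and 4.60 (-0.32 ± 0.27, adjusted p = 0.570), the lowest difference of all members with the widest interval, from -0.88 to 0.24. Abca1, the pump that loads cholesterol onto apolipoproteins, measured 0.860, 1.53 and 3.11 against 1.05, 1.94 and 2.86 (-0.17 ± 0.15, adjusted p = 0.571). With the FPKM sum as a covariate these were 0.06 for Npc2, 0.04 for Apoe, 0.01 for Stard4 and 0.003 for Abca1. The remaining members lay between -0.09 and 0.11: Npc1 (the membrane partner of Npc2) at -0.09, Lrp1 (a receptor for apolipoprotein E) at -0.05, Soat1 (which esterifies cholesterol for storage) at -0.04, the export pumps Abcg4 and Abcg1 at -0.02 and -0.01, and Cyp46a1 at 0.11.

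Read within batches, haloperidol against placebo gave 0 of 35 members and 0 of 12760 genes (0%) in batch 1, where 0 members and 0.697% of genes had an unadjusted p under 0.05. In batch 2, with 8 against 4 mice, it also gave 0 and 0, with 5 members and 16.7% of genes at an unadjusted p under 0.05 and a lowest adjusted p of 0.284 among members. Of these 5, Mvk, Tm7sf2, Npc2 and Apoe had differences above 0 and Hsd17b7 one below 0. The first 4 rose with the FPKM sum of the library and Hsd17b7 fell with it. In batch 2 the mean sum was 457641 with haloperidol and 406928 with placebo. The part of the sum in these within-batch differences was not tested. A test of whether the haloperidol difference itself differed between batches called 0 members and 0 genes, with 0 members and 1.6% of genes at an unadjusted p under 0.05. The related lists were alike in their counts: 0 of 12 genes of fatty acid synthesis, 0 of 8 of the isoprenoid branch and 0 of 17 tested of other sterol handling passed for haloperidol, with medians of -0.03, 0.02 and -0.03. Scarb1, a receptor for lipoproteins, had the lowest unadjusted p among the 3 lists, 0.0062, at a difference of 0.19 and an adjusted p of 0.568. Pltp, which moves phospholipid between lipoproteins, stood at 0.38 (adjusted p = 0.568).

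Between the batches, members did differ. Batch 2 was higher than batch 1 for 7 of 35 members and lower for 0, with treatment in the model. In all 48 of 12760 genes (0.376%) were called, 14 of them higher (0.11%) and 34 lower (0.266%), and the 7 members are among the 14. At an unadjusted p under 0.05, 14 members were higher and 4 lower, against 12.5% and 14.2% of all genes (26.7% together). The difference was above 0 for 23 of 35 members and 48.6% of genes, with medians of 0.12 and -0.0083. By role the called members were 2 of 8 from acetyl-CoA to squalene, 4 of 10 from squalene to cholesterol, 1 of 7 of control and 0 of 10 of transport. The labels do not say how the batches differed in age, litter, date or handling, and whatever differed between them cannot be told apart from batch.

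Insig1 (mm9 chr5:28397952-28405202, plus strand, 5 exons) had a lowest, median and highest level of 17.9, 22.1 and 27.7 scaled FPKM in the 16 mice of batch 1 and 29.1, 33.3 and 37.9 in the 12 of batch 2. Every mouse of batch 2 lay above every mouse of batch 1, in both treatments. The means were 33.3 ± 2.72 (SD, n = 12) and 22.3 ± 2.91 (SD, n = 16), and the difference was 0.58 ± 0.06, a 1.5-fold change (adjusted p = 8.49e-06). Insig1 was the only one of the 35 members tested whose batches did not overlap. The share of all genes without overlap is not given here, so how unusual this is cannot be read from it.

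Sc4mol (chr8:67196942-67212375, minus strand, 6 exons) had 43.6, 49.5 and 55.5 in batch 1 and 54.6, 59.8 and 65.9 in batch 2, a difference of 0.26 ± 0.04 (adjusted p = 0.00179). Of the 12 mice of batch 2, 10 lay above all 16 of batch 1. Sqle (chr15:59146647-59162748, plus strand, 11 exons), which oxidises squalene at the first oxygen-requiring step, had 13.1, 16.4 and 19.7 in batch 1 and 17, 20.5 and 22.6 in batch 2 (0.33 ± 0.06, adjusted p = 0.0142). Cyp51 (chr5:4080674-4104697, minus strand, 10 exons), which removes the C14 methyl group of lanosterol, had 11.6, 13.6 and 14.5 in batch 1 and 14.3, 14.9 and 17.9 in batch 2 (0.18 ± 0.04, adjusted p = 0.0384). For both, all 12 mice of batch 2 were above the batch 1 median, though the ranges met. Hsd17b7 (chr1:171879668-171899336, minus strand, 9 exons) had 1.04, 1.86 and 3.81 in batch 1 and 1.91, 3.02 and 4.22 in batch 2 (0.62 ± 0.14, adjusted p = 0.0381). This was the largest difference among the 7 and also the most variable gene of them. It fell below that of Insig1 with RIN as a covariate (0.36 against 0.58) or with the FPKM sum as one (0.39 against 0.57).

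Before squalene, Idi1 (chr13:8884852-8891642, plus strand, 5 exons), which turns isopentenyl diphosphate into its allylic isomer, had 12.2, 15.1 and 18.9 in batch 1 and 15.5, 19 and 23.4 in batch 2 (0.35 ± 0.07, adjusted p = 0.0268). Aacs (chr5:125956243-125997773, plus strand, 18 exons) had 7.67, 8.997 and 10.9 in batch 1 and 8.75, 11.5 and 12.8 in batch 2 (0.30 ± 0.06, adjusted p = 0.0142). Of 12 mice of batch 2, 7 lay above all of batch 1 for Idi1 and 8 for Aacs. Dhcr7 at 0.21 (adjusted p = 0.0787), Sc5d at 0.40 (adjusted p = 0.0902) and Lss at 0.46 (adjusted p = 0.120) missed the threshold. For the neighbouring steps Mvk, Pmvk, Fdps and Fdft1 the differences were -0.17, -0.30, -0.14 and -0.03, and none passed. With the FPKM sum as a covariate they were 0.18, 0.0025, 0.20 and 0.15, and of these Fdps passed. With RIN as a covariate they were 0.25, 0.09, 0.31 and 0.22, and none passed. Among the controllers Srebf2 stood at 0.32 (adjusted p = 0.162), Srebf1 at 0.19, Insig2 at 0.18 and Scap at -0.01. Stard4 had the highest difference of all members, 0.69 ± 0.27, and missed the threshold (adjusted p = 0.167), and Apoe had the lowest, -0.46 ± 0.22 (adjusted p = 0.185). Stard4, Lss, Sc5d and Srebf2 fell with the FPKM sum of the library and Apoe rose with it, as given below. The mean sum was lower in batch 2 in both treatments. With RIN as a covariate Apoe stood at 0.05.

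**Figure D3:**
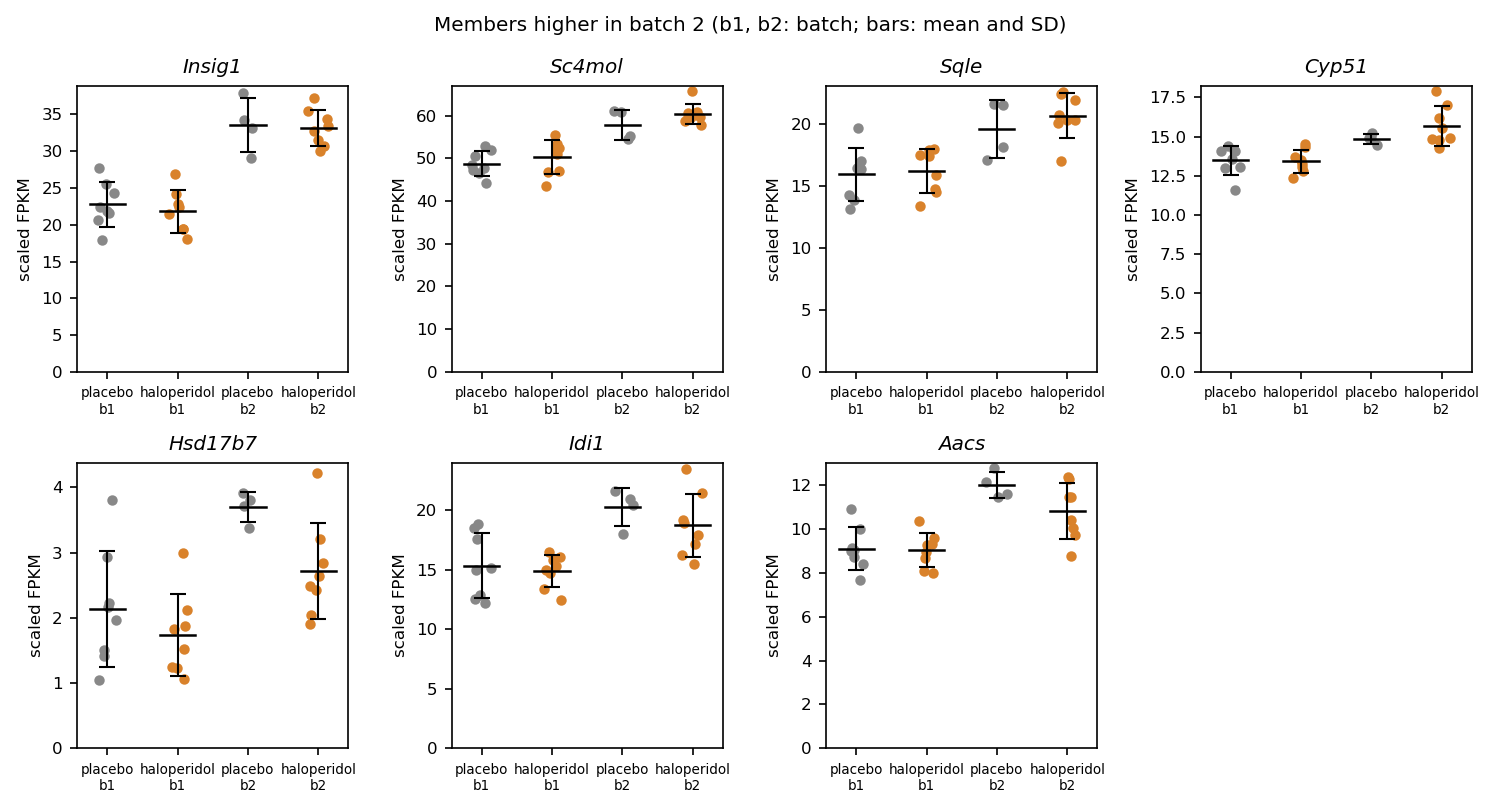
Scaled FPKM in each mouse (points) of the 7 members called higher in batch 2, by treatment and batch (b1, b2), with mean and SD as bars, n = 8, 8, 4 and 8 from left to right. For Insig1 the 12 mice of batch 2 lie between 29.1 and 37.9 and the 16 of batch 1 between 17.9 and 27.7.

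Within haloperidol mice alone, an alternative added after the data were seen, Insig1 was the 1 gene of 12760 (0.00784%) called between batches, at 0.60 (adjusted p = 0.00968). Within placebo mice alone, 12 in all, 0 genes (0%) passed, with 21.6% of genes at an unadjusted p under 0.05, and Insig1 stood at 0.55 (adjusted p = 0.226). The 7 members were above 0 in both treatments, from 0.22 (Cyp51) to 0.60 (Insig1) in haloperidol mice and from 0.14 (Cyp51) to 0.74 (Hsd17b7) in placebo mice. The 7 were picked on these same libraries, so their shared sign is no separate evidence. Of all 35 members, 23 were above 0 in haloperidol mice and 21 in placebo mice. RIN was higher in batch 2. With RIN as a covariate 2 members were called, Insig1 at 0.58 (adjusted p = 0.000447) and Sc4mol at 0.28 (adjusted p = 0.0217), of 6 genes (0.047%). The other members of the 7 were then between 0.18 (Cyp51) and 0.36 (Hsd17b7). With the FPKM sum as a covariate 10 members were called of 122 genes (0.956%), all higher: the 7, with Dhcr7, Mvd and Fdps. Rescaling every library to a common FPKM sum moved the median of all genes to 0.15 and left 2 members, Insig1 and Dhcr7, of 15 genes (0.118%). On that scale the other members of the 7 had larger differences than before and missed the threshold, from 0.35 (Cyp51, adjusted p = 0.139) to 0.76 (Hsd17b7, adjusted p = 0.135), with Sc4mol at 0.43 (adjusted p = 0.0561). Leaving out 1 library at a time, the count of members ran from 4 to 8. Insig1, Sc4mol, Aacs and Sqle passed in 28 of 28 such fits, Idi1 in 20, Hsd17b7 in 12 and Cyp51 in 11. The count fell to 4 without any 1 of haloperidol mice 3, 19, 21, 25 and 29 and placebo mice 22, 26 and 32.

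Among the cell type markers only Ly6c1 passed the adjusted threshold between batches. At an unadjusted p under 0.05, 12.5% of all genes were higher and 14.2% lower. All 7 cortical excitatory neuron markers were above 0, 6 of them at an unadjusted p under 0.05 and 0 adjusted, with a median of 0.39, and their sum ran from 194 to 546 in batch 1 and from 313 to 463 in batch 2. The 8 microglia markers had a median of -0.27 (4 lower at an unadjusted p under 0.05, 0 adjusted). Medians were -0.07 for 10 oligodendrocyte, 0.03 for 10 astrocyte, -0.06 for 10 spiny projection neuron, -0.003 for 5 endothelial (1, Ly6c1, called lower) and 0.35 for 5 choroid plexus markers. For haloperidol the cortical markers had a median of -0.23, and choroid plexus of 0.48. The part of cell composition in the member differences was not tested. Of the related lists, fatty acid synthesis had 10 of 12 genes above 0 between batches, 5 at an unadjusted p under 0.05 and 0 adjusted, with a median of 0.14. Scd1 (stearoyl-CoA desaturase) stood at 0.33 (adjusted p = 0.160) and Acss2 (acetyl-CoA synthetase) at 0.14 (adjusted p = 0.169). The isoprenoid branch had 3 of 8 above 0 and other sterol handling 9 of 17, with medians of -0.05 and 0.03 and 0 called. In the last list Lbr, the lamin B receptor and another sterol C14 reductase, stood at 0.30 (adjusted p = 0.0674).

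The FPKM sum of a library, which ranged from 380952 to 575171, went with the level of most members from mouse to mouse. As a term beside treatment and batch it passed for 29 of 35 members and for 82% of all genes, so members are near the background. The sum is taken from the same libraries and includes the members. With it 15 members rose and 14 fell, and RIN as a term passed for 28 of 35 members and 69.7% of genes. Apoe rose most, by 3.17 ± 0.13 on the log2 scale for each doubling of the sum, with Mvd at 2.75, Mvk at 2.63 and Fdps at 2.53. Stard4 fell most, at -3.78 ± 0.30, with Abca1 at -2.02, Lss at -1.87 and Insig2 at -1.72. The median exon length was 1955 bases for members that rose and 4434.5 for those that fell, against 1838 and 4214.5 for all genes of these kinds. The 6 members without a called term were Insig1, Sc4mol, Sqle, Cyp51, Aacs and Scap, and the first 5 of these are among the 7 higher in batch 2. Mean sums were 486223 and 473907 for haloperidol and placebo in batch 1 and 457641 and 406928 in batch 2. What sets the sum was not tested.

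**Figure D4:**
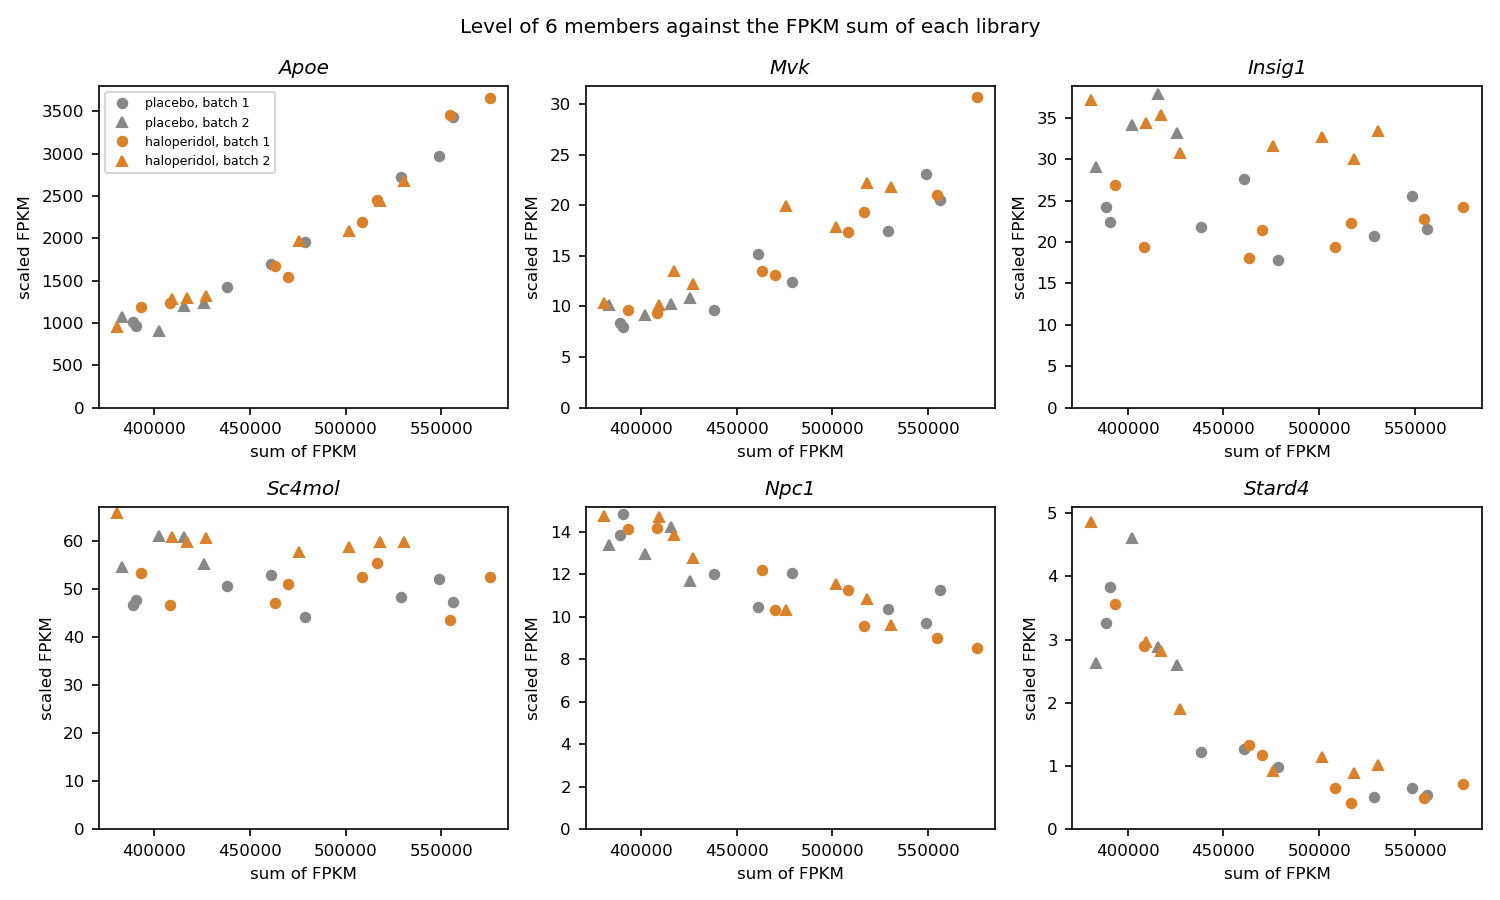
Scaled FPKM of 6 members in each mouse against the sum of all FPKM of its library, coloured by treatment, with circles for batch 1 and triangles for batch 2. Apoe and Mvk rise with the sum, Npc1 and Stard4 fall, and Insig1 and Sc4mol show no called slope, with batch 2 above batch 1 for Insig1 at any sum.

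The enzymes were then set against each other over the 28 libraries, with the mean of each treatment and batch subtracted, as a description. The points share library depth, RNA quality and dissection. Among the 8 genes from acetyl-CoA to squalene the median Pearson r over 28 pairs was 0.846 (Spearman 0.846), which fell to 0.378 with the FPKM sum removed. Among the 10 genes from squalene to cholesterol it was 0.135 over 45 pairs, and 0.292 with the sum removed. Over all genes tested it was 0 and 0.005. Mvk, Pmvk, Mvd, Fdps, Fdft1, Tm7sf2, Acat2 and Ebp went together from mouse to mouse, and opposite to Lss, Sc5d, Hsd17b7 and Idi1. The former rose and the latter fell with the FPKM sum, as did 5335 and 5124 of all genes tested. With genes split this way, a median near 0 over all pairs does not mean that other genes were unrelated. Of 153 pairs of the 18 enzymes 93 were above 0, 53 above 0.5 and 34 below -0.5. With the sum removed 146 of 153 were above 0, 19 above 0.5 and 0 below -0.5. The median went from 0.108 to 0.315. Such counts over all gene pairs are not given here. Medians of the other lists with the sum removed ran from -0.031 (control) to 0.944 (choroid plexus markers), with 0.299 for astrocyte markers. A positive median is thus not particular to the enzymes.

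**Figure D5:**
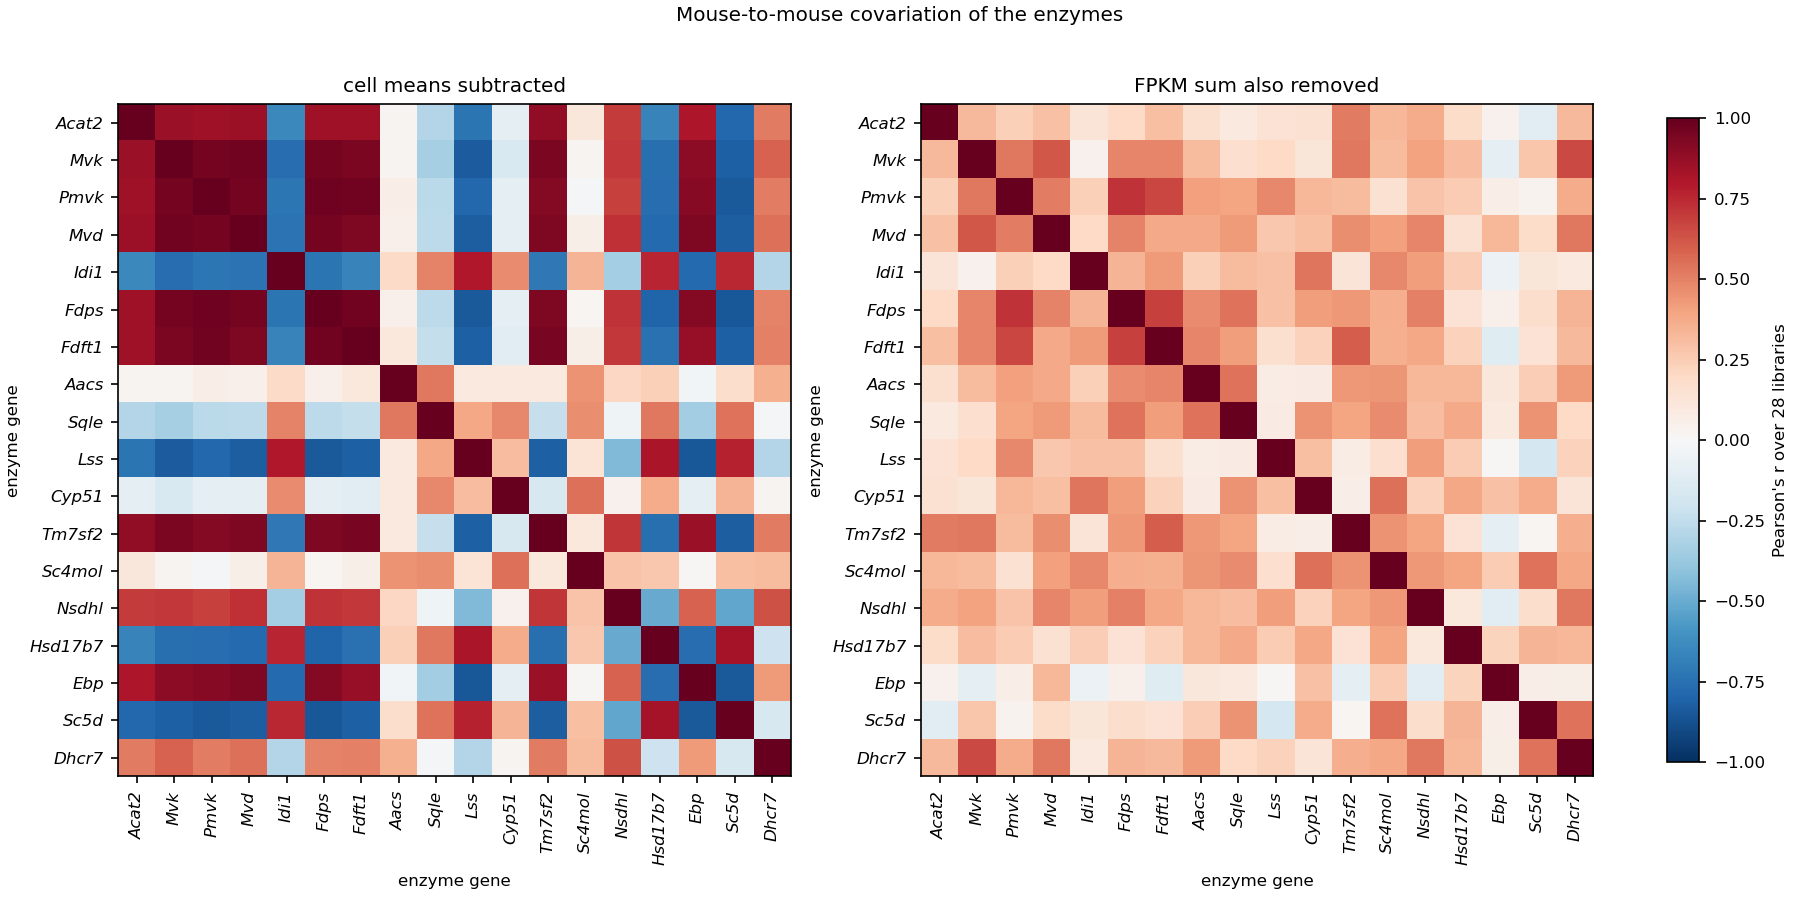
Pearson's r between pairs of the 18 enzymes over 28 libraries, with treatment and batch means subtracted (left) and with the FPKM sum also removed (right). Blocks of r below -0.5 on the left, 34 of 153 pairs, are at 0 pairs on the right, where 146 pairs are above 0.

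At the level of transcripts, 39 member transcripts passed the same filter. Haloperidol called 0 of them (0.00653% of 15324 transcripts), and batch called 5, all higher (0.15% of transcripts, 0.0457% higher). Insig2 has 4 transcripts in the files, of which NM_178082 holds 73.2% of the gene's FPKM. That transcript ranged from 0.0467 to 18.4 scaled FPKM between libraries, while the gene ranged from 7.29 to 19.2, so its level was divided unevenly among the 4. Pmvk, Mvd, Fdps, Scap and Nr1h3 have 2 transcripts each, with 88.9% or more of the level in the larger. Exon bases shared with a gene on the other strand were few for Lss (188 with 4930483K19Rik), Srebf1 (107 with Rai1) and Npc1 (164 with 3110002H16Rik), and Tm7sf2 shares 9 with Vps51 on its own strand.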

How the data were processed

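RNA-seq was done on striatum of 28 mice, 1 library each, in 2 batches. Libraries came from total RNA with Illumina's TruSeq RNA v2 chemistry, per the labels. The deposited files hold an FPKM value with its interval and coverage as an attribute of each RefSeq transcript, for the same 30563 transcripts in every library. The aligner was TopHat2 2.0.6 on the mm9 genome and the FPKM came from Cufflinks, per the submitters' processing notes. The sources used here give neither the version of Cufflinks nor whether it used strand.

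FPKM were added over the transcripts of each symbol, and the 12760 genes whose mean reached an FPKM of 1 were tested. Each library was divided by a median-of-ratios factor. Tests were made with limma 3.58.1 (lmFit, eBayes with trend, 2-sided, R 4.3.3) on log2(scaled FPKM + 0.5). Treatment and batch entered together, with Benjamini-Hochberg adjustment at 0.05. This scale understates changes of low genes. An FPKM is not a count, so no count model was run. The 28 libraries held 0 identical pairs, and the test was tried on simulated data. Alternatives were pseudocounts of 0.1 and 1, a minimum mean FPKM of 0.1, a common FPKM sum, RIN or the FPKM sum as a covariate, no batch term and leaving out each library. All members are accounted for. Given in full are members called in any comparison, the 4 with the smallest haloperidol p in each role, and the isomerase and reductase steps. Genes of the 3 related lists were named by smallest p. The members and lists were chosen with earlier results of these data known. Promoter motifs were counted with Python 3.11.15.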

Additional observations from a re-analysis of the deposited data

How the results depend on the processing

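Counts for haloperidol against placebo stayed at 0 members under every alternative run, and those for the interaction and for transcripts kept within 1.5 times. Of 2485 single-gene values recomputed, 2329 kept direction and call, 86 changed sign, 65 lost a call and 5 gained one, and of the values called as reported 0 changed sign. The batch count of 7 members went to 2 with a common FPKM sum, to 2 with RIN as a covariate, to 1 in haloperidol libraries only and to 0 in placebo libraries only (both chosen after seeing the data), and to between 4 and 8 when leaving out 1 library. The last 3 rest on fewer samples; for the first 2 the cause was not tested. Rescaling to a common FPKM sum shifted the median of all genes from 0.0038 to -0.08 for haloperidol (31.3% above 0) and from -0.0083 to 0.15 for batch (74.3% above 0). No paired analysis was possible because the mouse numbers are not shared between the groups. Signs changed as follows, in log2 units. For haloperidol with a common FPKM sum: Acat2 -0.0239, Cyp51 -0.0623, Dhcr7 -0.0685, Ebp -0.0250, Nr1h3 -0.0356, Nsdhl -0.0169, Sc4mol -0.0394, Scap -0.0712, Sqle -0.0425 and Srebf1 -0.0590. With log2 of the FPKM sum as a covariate: Abca1 0.00330, Abcg1 0.0183, Abcg4 0.0324, Acat2 -0.0399, Cyp46a1 -0.0465, Dhcr7 -0.0118, Ebp -0.0938, Idi1 0.00891, Lss 0.0326, Mvd -0.0193, Nr1h2 -0.0182, Nr1h3 -0.127, Sc5d 0.0417, Soat1 0.0588, Srebf2 0.0333 and Stard4 0.0135. Without the batch term: Abcg4 0.00262, Insig1 0.0567 and Nr1h3 -0.0321. For batch with a common FPKM sum: Fdft1 0.146, Fdps 0.0339, Scap 0.166 and Tm7sf2 0.0273. With log2 of the FPKM sum as a covariate: Abcg1 -0.0258, Ebp 0.00228, Fdft1 0.152, Fdps 0.199, Insig2 -0.0503, Lrp1 -0.00654, Mvk 0.182, Pmvk 0.00250, Soat1 -0.105 and Tm7sf2 0.128. With RIN as a covariate: Abca1 -0.0538, Abcg1 -0.0503, Apoe 0.0506, Cyp46a1 0.0806, Ebp 0.0780, Fdft1 0.223, Fdps 0.310, Insig2 -0.0994, Lrp1 -0.0306, Mvk 0.252, Npc1 -0.0543, Nr1h2 0.0150, Pmvk 0.0945, Scap 0.0156, Soat1 -0.146 and Tm7sf2 0.237. In haloperidol libraries only: Abcg1 -0.0280, Fdft1 0.0199, Scap 0.00485 and Soat1 -0.0634. In placebo libraries only: Acat2 -0.152 and Mvd -0.0535. Leaving out 1 library at a time, haloperidol values that changed sign ranged from -0.037 to 0.0038 for Abcg1, -0.039 to 0.012 for Abcg4, -0.00031 to 0.037 for Dhcr7, -0.014 to 0.12 for Nr1h3, -0.0072 to 0.030 for Scap and -0.0070 to 0.059 for Srebf1, and batch values from -0.032 to 0.058 for Acat2 and -0.020 to 0.019 for Scap. The absolute depth is unknown, and the widest haloperidol interval among the members tested was that of Stard4.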
